A study of Mus musculus with 4 samples.

Results

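The 10 genes described here are 6 keratins of the basal layer and of stressed or wounded epidermis (Krt5, Krt14, Krt15, Krt6a, Krt16 and Krt17), the transcription factor gene Trp63, the stratifin gene Sfn, and the desmosomal cadherin genes Dsg3 and Dsc3. They were taken by symbol from a table of 22369 genes. The symbols had been selected on their role in basal epidermis and on keratinocyte values of this same V118M and WT contrast. All 10 were found, and all 10 passed the filter on low values that 19547 genes passed. The values come from OG2MEF cultures, mouse embryonic fibroblasts that carry a fluorescent reporter driven by Oct4, sampled on day 9 of reprogramming. There were 2 libraries from cells given SOX17-V118M, a missense form of the endodermal factor SOX17, and 2 libraries from cells given wild-type SOX17 (WT). Per the labels' protocols, pMX retroviruses for Sox2 and Klf4 were given along with a virus for OCT4, for either SOX17 form or for GFP, and the medium was then changed to one for mouse embryonic stem cells that contains LIF and vitamin C. The labels do not state the exact mix each library received, or whether replicates were separate cultures, so the spread between libraries may be technical.

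Keratins are intermediate filament proteins that assemble as pairs of a type I and a type II chain. In basal cells of stratified epithelia the type II keratin is Krt5 and its main type I partner is Krt14, while Krt15 is a further type I chain of basal and hair follicle bulge cells. Krt6a (type II) pairs with Krt16 and Krt17 (type I) in hair follicles and in epidermis that is wounded or inflamed. Trp63 encodes p63, a relative of p53 that specifies stratified epithelium and activates Krt5 and Krt14, and Dsg3 and Dsc3 encode the cadherins that hold basal keratinocytes together at desmosomes. Sfn encodes 14-3-3 sigma, an epithelial adaptor protein that arrests the cell cycle in human cells when p53 induces it.

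The table holds whole numbers that look quantile-normalized, a step inferred from the columns, and are not read counts. Sequencing depth is therefore unknown, and values are in the table's own units. V118M replicate 2 stood apart: over the 12661 genes whose log2 values averaged 5 or more, it correlated with the other libraries at 0.954 to 0.964 (Pearson), against 0.986 to 0.990 among those. Long transcripts were lower in it: its deviation from the others had a Spearman correlation of -0.458 with the length of the listed transcript, over 12635 genes that are not independent replicates. Fibroblast markers (8 genes, the highest being Col3a1 and Col1a2) summed to 156840 and 118604 in V118M libraries and to 158066 and 157230 in WT libraries. Simple epithelium markers (6 genes, the highest being Krt19 and Krt8) summed to 20399 and 22325 in V118M and 20393 and 21742 in WT. Thus fibroblast and epithelial transcripts were both present in every library. Pluripotent cell markers (6 genes, the highest being Tdgf1 and Utf1) summed to only 237 and 212 in V118M and 101 and 160 in WT, and leukocyte markers (6 genes, the highest being Cd68 and Ptprc) to 234 and 212 in V118M and 462 and 330 in WT. Of their defining genes, Esrrb and Dppa5a were each at 0 in 3 of 4 libraries, and Ptprc was at 30 and 0 in V118M and 165 and 58 in WT. Nanog was at 6 and 6 in V118M and 1 and 8 in WT, and Zfp42 at 8 and 19 in V118M and 6 and 9 in WT. Esrrb, Dppa5a, Nanog and Zfp42 are named after their values were seen. The part of these differences in the results was not tested.

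Several keratin transcripts share stretches of sequence, which bears on how reads could be divided between them. Windows of 50 bases from the longest coding transcript of each gene were searched, on both strands, in all transcripts of other genes in GENCODE M21 (GRCm38, the assembly also called mm10). For Krt6a 62.0% of all windows occurred elsewhere, 43.6% in the neighbouring copy Krt6b and 15.5% in Gm49428, an antisense gene that overlaps Krt6a. For Krt16 the share was 37.6%, made up of 25.2% in the pseudogene Gm11597 and 12.4% in Krt14. It was 15.0% for Sfn, mostly in the processed pseudogene Gm7850, 14.4% for Krt14, 12.2% for Krt5, 3.99% for Krt17, 0.666% for Krt15, 0.130% for Dsg3 and 0% for Trp63 and Dsc3. Krt17, Krt15, Dsg3, Trp63 and Dsc3 are therefore nearly unique in sequence, and Krt6a is the least so. The longest runs of coding sequence that pairs of these keratins have in common are shown because a read lying wholly inside one cannot be assigned to a single gene. They are given in the sense of the transcript and numbered from the start of the coding sequence. The capitals in the Krt17 run mark the 55 bases that Krt16 has as well.
Krt6a and Krt6b (280 bases, 34 to 313 of the Krt6a coding sequence): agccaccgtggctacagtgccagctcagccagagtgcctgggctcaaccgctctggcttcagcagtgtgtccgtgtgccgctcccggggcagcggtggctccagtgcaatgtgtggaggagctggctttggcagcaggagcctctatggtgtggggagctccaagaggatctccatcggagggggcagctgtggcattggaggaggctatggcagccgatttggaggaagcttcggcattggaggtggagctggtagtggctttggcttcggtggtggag
Krt16 and Krt14 (134 bases, 282 to 415 of the Krt16 coding sequence): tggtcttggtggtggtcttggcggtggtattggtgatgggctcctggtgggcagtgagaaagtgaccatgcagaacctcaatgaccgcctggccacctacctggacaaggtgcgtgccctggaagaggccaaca
Krt17 and Krt14 (71 bases, 1105 to 1175 of the Krt17 coding sequence): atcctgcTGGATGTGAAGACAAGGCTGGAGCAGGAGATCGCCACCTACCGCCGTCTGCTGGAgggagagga

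Across the group, 8 of 10 genes had a higher fitted level in V118M than in WT and 2 a lower one, and the median log2 fold change was 0.56 (V118M minus WT, on the log2(value + 1) scale). Over all 19547 genes tested the median was 0 and 49.2% were above 0. The V118M values lay above both WT values in 8 of the 10, where 13.2% of all genes did so, and below both in 1, where 14.8% did (28.0% for either direction). These genes were chosen with this contrast known, so their values are a description and carry no test. In the fit over all genes (limma, Benjamini-Hochberg adjustment) 0 of 19547 passed an adjusted p of 0.05, that is 0% of genes, the lowest adjusted p being 0.205. An unadjusted p under 0.05 was reached by 784 genes (4.01%), and by 1039 without the trend and robust options.

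**Figure D1:**
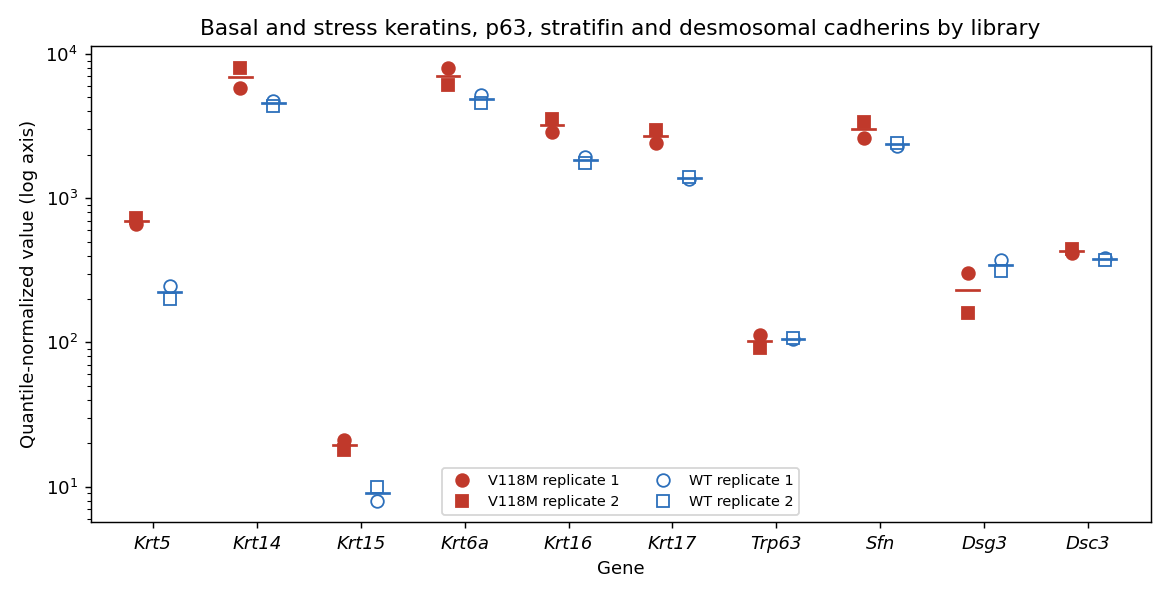
Table value (log axis) of each of the 10 genes in the 2 V118M libraries (filled red, left) and the 2 WT libraries (open blue, right). Circles mark replicate 1, squares replicate 2 and lines the group means. The axis calls the values quantile-normalized, which is inferred from the columns. The 6 keratins, Sfn and Dsc3 are higher in both V118M libraries, Dsg3 is lower in both, and the Trp63 values overlap.

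The keratin with the largest difference was Krt5 (ENSMUSG00000061527, chromosome 15, 101707070 to 101712898, minus strand), the type II keratin of the basal layer. Krt5 stood at 664 and 731 in the V118M libraries and at 246 and 199 in the WT libraries. The groups did not overlap, and the gap between them was several times the gap between replicates. The means were 697.5 ± 47.4 in V118M and 222.5 ± 33.2 in WT (SD, n = 2 each), a log2 fold change of 1.65 (standard error 0.18). Relative to the WT mean it was 1.58 in V118M replicate 1 and 1.72 in V118M replicate 2, so the libraries differed little from each other. In V118M 78.9% and 80.5% of genes had a value at or below that of Krt5, and in WT 62.9% and 60.1% did. In cultures such as these, more cells of a type and more RNA per cell cannot be told apart.

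Krt14, the type I partner of Krt5 (chromosome 11, 100203162 to 100207548, minus strand), stood at 5802 and 8053 in V118M and at 4752 and 4358 in WT. Both V118M values were above both WT values, but the V118M libraries differed from each other more than replicate 1 differed from WT. The log2 fold change was 0.59 (standard error 0.21). It was 0.35 in V118M replicate 1 and 0.82 in V118M replicate 2 relative to the WT mean. The transcript that the table lists for Krt14 is a noncoding one of 1122 bases that starts inside the gene, while the coding transcript has 1698 bases. The table gives a single value per gene, so the transcripts cannot be told apart. Per kilobase of the longest coding transcript, Krt5 came to 8.85% and 7.02% of the Krt14 level in V118M and to 4.0% and 3.53% in WT. The basal keratin pair was thus far from equal in transcript level, with Krt14 in excess in all 4 libraries.

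Krt15, the other basal type I keratin (chromosome 11, 100131758 to 100135928, minus strand), was low at 21 and 18 in V118M and 8 and 10 in WT. The groups did not overlap. Its log2 fold change was 1.04 (standard error 0.42), and on such small values it depended on the constant added before taking logarithms (0.81 with 5 in place of 1).

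The promoter of Krt5 is shown because it belongs to the gene with the largest difference among the 10, and p63 acts on this gene. RefSeq windows (GRCm38.p6, from 250 bases before to 50 after the start) were found for Krt5, Krt14 and Sfn. They were searched on both strands for a TATA box (TATAAA), an AP-1 site (TGANTCA), a SOX site (CATTGT) and the p53-family half-site that p63 also binds. The Krt5 window holds a half-site, which reads as a match on both strands, 95 bases before the start and in capitals here. The same half-site occurs in 8.36% of 32851 promoter windows. The windows of Krt14, which surrounds the internal start noted above, and of Sfn held none of these motifs, and the Krt5 window none of the others, which occur in 13.6% (TATA box), 7.81% (AP-1) and 12.6% (SOX) of windows. No motifs overlapped. Only the patterns named were searched, so a variant of a TATA box or of another motif would not be found. A match is a description of letters, not of binding.
Krt5 promoter (chr15:101712856-101713155, minus strand, 300 bases): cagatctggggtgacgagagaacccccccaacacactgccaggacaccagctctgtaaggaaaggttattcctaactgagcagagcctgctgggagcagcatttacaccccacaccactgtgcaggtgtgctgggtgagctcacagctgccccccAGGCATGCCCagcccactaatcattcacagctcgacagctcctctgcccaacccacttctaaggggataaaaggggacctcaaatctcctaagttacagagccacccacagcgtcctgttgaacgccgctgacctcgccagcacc

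The stress keratins were already abundant in WT and higher in V118M. Krt6a (chromosome 15, 101689910 to 101694307, minus strand) stood at 8053 and 6140 in V118M and at 5214 and 4554 in WT. The lower V118M value, in replicate 2, was still above the higher WT value. The log2 fold change was 0.53 (standard error 0.20). Krt6a is the only keratin of the 6, besides the low Krt15, that was higher in V118M replicate 1 than in replicate 2.

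Krt16 (chromosome 11, 100246091 to 100248902, minus strand) stood at 2880 and 3540 in V118M and at 1924 and 1756 in WT, without overlap. Its means were 3210.0 ± 467 in V118M and 1840.0 ± 119 in WT (SD, n = 2 each), and its log2 fold change was 0.80 (standard error 0.17). Krt17 (chromosome 11, 100256217 to 100261029, minus strand), which encodes a type I keratin of hair follicles and wounded skin, stood at 2427 and 2962 in V118M and at 1364 and 1399 in WT. Its groups did not overlap. They were far apart compared with the gap between the WT libraries, and less so compared with the wider gap between the V118M libraries. Krt17 had a log2 fold change of 0.96 (standard error 0.16). Krt17 is the stress keratin with the least sequence in common with other genes.

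Because reads of near-identical keratins can be split between copies, sums were also taken. Krt6a and Krt6b together came to 10031 and 7876 in V118M and to 6448 and 5582 in WT, a ratio of means of 1.49. Krt6b held 19.7% and 22.0% of that sum in V118M and 19.1% and 18.4% in WT. Krt14, Krt16 and Krt17 together came to 11109 and 14555 in V118M and 8040 and 7513 in WT, a ratio of 1.65. The sum over all 6 keratins was 19847 and 21444 in V118M and 13508 and 12276 in WT, a ratio of 1.60. The sums thus kept the order of the groups whatever the division of reads within them. No sum was taken of Krt5 and Krt6a alone, and the sum over all 6 keratins holds both.

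Trp63 (chromosome 16, 25683763 to 25892102, plus strand) had overlapping groups. It stood at 112 and 92 in V118M and at 105 and 107 in WT. The V118M values enclosed the WT values, and the log2 fold change of -0.06 was below its standard error of 0.22. It was 0.08 in V118M replicate 1 and -0.20 in V118M replicate 2 relative to the WT mean, and 0.02 once a trend on length and GC was taken out of each library. GENCODE lists 8 coding transcripts of Trp63, of which 4 start at the upstream promoter and 4 at the internal promoter that makes the ΔN forms, the main forms of basal epidermis. The transcript listed in the table begins at the internal start, at position 25801916, but with a single value per gene the forms cannot be told apart. The other p53 family genes were Trp53, at 1992 and 2004 in V118M and 1743 and 1917 in WT, and Trp73, at 6 and 1 in V118M and 10 and 6 in WT. Neither Trp53 (log2 fold change 0.13, adjusted p = 0.951 by limma) nor Trp73 (-1.23, adjusted p = 0.951 by limma) passed.

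Sfn (chromosome 4, 133600556 to 133602168, minus strand) stood at 2607 and 3402 in V118M and at 2318 and 2427 in WT. Both V118M values were above the WT values, replicate 1 only slightly. The log2 fold change was 0.33 (standard error 0.18). It was 0.14 in V118M replicate 1 and 0.52 in V118M replicate 2. The other genes of the 14-3-3 family, which are expressed in most cell types, had a median of 0.12 on the log2 fold change scale over 6 genes, 5 above 0 and 1 below, and 0 passed the adjusted p or an unadjusted p under 0.05 (limma). Their medians were -0.0093 and 0.28 in V118M replicates 1 and 2. Ywhaz, the family member with the highest mean beside Ywhae, stood at 13670 and 16333 in V118M and 12805 and 14852 in WT. Ywhae stood at 12822 and 16345 in V118M and 10472 and 13680 in WT.

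The desmosomal cadherins differed less evenly than the keratins. Dsg3 (chromosome 18, 20510274 to 20547459, plus strand) was the only one of the 10 genes with lower values in both V118M libraries, at 304 and 161 against 370 and 314 in WT. The V118M values were far apart, replicate 1 lying just under the lower WT value. The log2 fold change was -0.62 (standard error 0.33). It was -0.16 in V118M replicate 1 and -1.08 in V118M replicate 2, the library in which long transcripts were low, and Dsg3 has the longest listed transcript of the 10 (6212 bases). With the length and GC trend removed it was -0.50. Dsc3 (chromosome 18, 19960930 to 20002351, minus strand) stood at 414 and 446 in V118M and at 382 and 374 in WT, without overlap, and its log2 fold change was 0.18 (standard error 0.15). The listed Dsc3 transcript has 5333 bases. With the trend removed its log2 fold change was 0.28. The part of transcript length in the values of both genes was not tested beyond this.

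**Figure D2:**
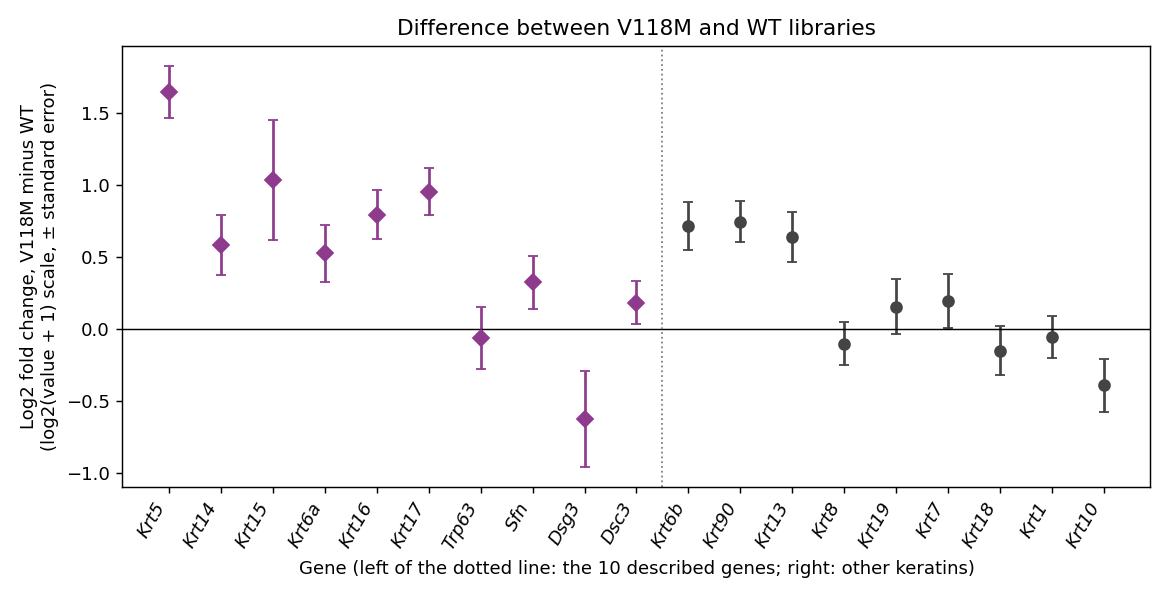
Log2 fold change (V118M minus WT, log2(value + 1) scale) with its standard error for the 10 genes (purple diamonds, left of the dotted line) and 9 other keratins (grey circles). Krt5 has the largest difference at 1.65, Krt6b, Krt90 and Krt13 lie beside the stress keratins at 0.72, 0.75 and 0.64, and Krt8, Krt18, Krt19 and Krt7 lie between -0.15 and 0.20.

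The table has 37 other keratin genes, of which 33 were tested, 20 with a log2 fold change above 0 and 13 below, with a median of 0.24. The V118M values were above both WT values in 7 and below both in 7, where 13.2% and 14.8% of all genes were. None passed the adjusted p and 4 had an unadjusted p under 0.05 (limma), which 4.01% of all genes had. Most of these genes were near the bottom of the scale. With a value of at least 10 required in 2 libraries the median was -0.056, and it was -0.0047 and 0.40 in V118M replicates 1 and 2. Krt19 and Krt8, keratins of simple epithelia, had the highest means of the others. Krt8 stood at 6332 and 5972 in V118M and 6702 and 6490 in WT, and Krt19 at 6692 and 8352 in V118M and 6140 and 7312 in WT. Krt7, Krt8, Krt18 and Krt19 together came to 16232 and 18405 in V118M and 16017 and 17260 in WT, a ratio of means of 1.04. The groups of this sum overlapped, unlike those of the sum over the 6 basal and stress keratins. The basal keratinocyte markers were Krt5, Krt14, Krt15, Trp63, Col17a1 and Itgb4, of which only Col17a1 and Itgb4 are not among the 10. They summed to 22146 and 16383 in V118M and 18381 and 15503 in WT, so this sum overlapped too. Of these 6 genes 4 had a log2 fold change above 0 and 2 below, with a median of 0.52. Itgb4, with the highest mean, stood at 14813 and 6967 in V118M and 12752 and 10437 in WT.

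Keratin genes lie in a type II cluster on chromosome 15, which also holds the type I gene Krt18, and a type I cluster on chromosome 11. On chromosome 15 the table has 19 keratins, 11 of them with a mean of at least 30, and on chromosome 11 it has 24, 8 of them at that level. Among the keratins at that level on chromosome 15, those with V118M values above both WT values followed each other in gene order: Krt90, Krt6b, Krt6a and Krt5. Krt75, below that level, lies between Krt90 and Krt6b and stood at 3 and 1 in V118M and 4 and 8 in WT. Krt6b (101676023 to 101680287), at 1978 and 1736 in V118M and 1234 and 1028 in WT, differed by 0.72 on the log2 scale (adjusted p = 0.951 by limma). Krt90 (101552356 to 101562950), at 1582 and 1564 in V118M and 970 and 904 in WT, differed by 0.75 (adjusted p = 0.783 by limma). Their neighbours on either side at that level, Krt7 (0.20) and Krt1 (-0.06), had overlapping groups. On chromosome 11, Krt14, Krt16 and Krt17 are adjacent. Krt19, which lies between them and Krt13, had overlapping groups. Krt15, below the level of 30, lies between Krt13 and Krt19. Krt13 (100117327 to 100121566), a type I keratin of internal stratified epithelia, stood at 708 and 894 in V118M and 500 and 520 in WT (log2 fold change 0.64, adjusted p = 0.951 by limma). At the other end of that cluster, Krt20 stood at 376 and 360 in V118M and 526 and 502 in WT. Krt10 there stood at 134 and 123 in V118M and 171 and 166 in WT. Krt6b, Krt90, Krt75, Krt13, Krt20, Krt10 and Krt7 are named after their values were seen.

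**Figure D3:**
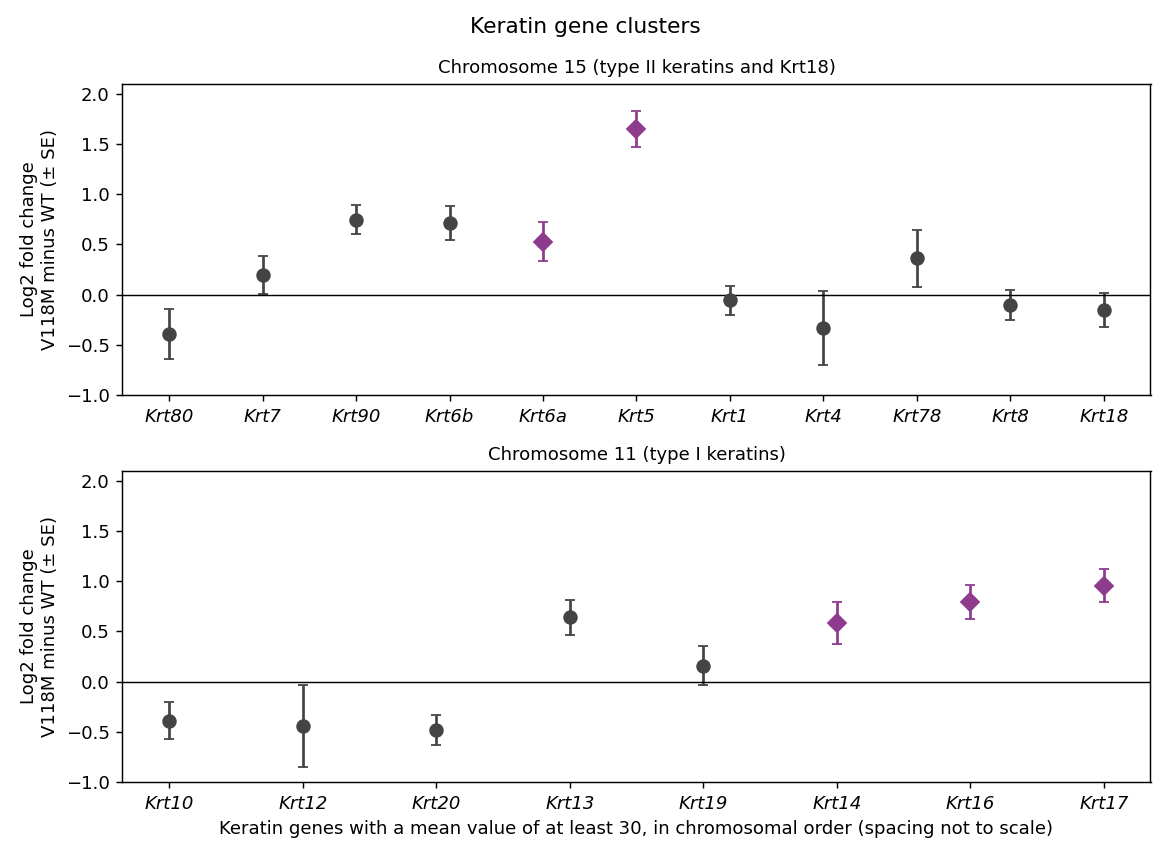
Log2 fold change (V118M minus WT, log2(value + 1) scale) with its standard error for the 19 keratins with a mean value of at least 30, in their order on chromosome 15 (top) and chromosome 11 (bottom), with the described keratins as purple diamonds. Among the keratins shown, Krt90, Krt6b, Krt6a and Krt5 follow each other and lie above 0, as do Krt14, Krt16 and Krt17.

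The suprabasal markers, which follow the basal keratins when a keratinocyte differentiates, had a median of 0.03 over 6 genes (log2 fold change), 3 above 0 and 3 below. None passed the adjusted p, and 2 had an unadjusted p under 0.05 (limma), which 4.01% of all genes had. Of these, Lor was higher in V118M and Flg lower. The V118M values were above both WT values in 1 gene and below both in 2, where 13.2% and 14.8% of all genes were. Krt1, the type II keratin of differentiating layers, stood at 1564 and 1457 in V118M and 1637 and 1504 in WT. Lor, a cornified envelope gene, stood at 722 and 737 in V118M and 578 and 465 in WT. Flg stood at 52 and 42 in V118M and 82 and 76 in WT, and is named after its values were seen. The summed level of the 6 markers was 2579 and 2477 in V118M and 2574 and 2313 in WT.

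The desmosome genes other than Dsg3 and Dsc3 had a median of 0.0074 over 11 genes (log2 fold change), 6 above 0 and 5 below. None passed the adjusted p or an unadjusted p under 0.05 (limma). The median was 0.12 in V118M replicate 1 and -0.25 in V118M replicate 2. Dsp, the plakin that ties keratin filaments to the desmosome, was at the table's highest value, 61186, in V118M replicate 1 and both WT libraries and at 12776 in V118M replicate 2. Jup, the plakoglobin gene, stood at 5214 and 4192 in V118M and 5664 in both WT libraries.

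Hemidesmosome and basement membrane genes, whose products anchor basal keratinocytes through the same keratins, had a median of -0.25 over 10 genes, 2 above 0 and 8 below. None passed the adjusted p or an unadjusted p under 0.05 (limma). This median was 0.12 in V118M replicate 1 and -0.49 in V118M replicate 2. Dst, which encodes a plakin of the hemidesmosome, stood at 16310 and 6980 in V118M and 14830 in both WT libraries. Plec stood at 13651 and 7328 in V118M and 12776 in both WT libraries. In both lists the V118M libraries differed from each other more than replicate 1 differed from WT.

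Regulators and receptors of basal epidermis had a median of -0.13 over 17 genes, 4 above 0 and 13 below, and 0 passed the adjusted p or an unadjusted p under 0.05 (limma). The median was 0.032 in V118M replicate 1 and -0.40 in V118M replicate 2. Egfr, the receptor for epidermal growth factor, stood at 1522 and 887 in V118M and 1536 and 1566 in WT. Esrp1, an epithelial splicing regulator, stood at 777 and 661 in V118M and 736 and 777 in WT.

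**Figure D4:**
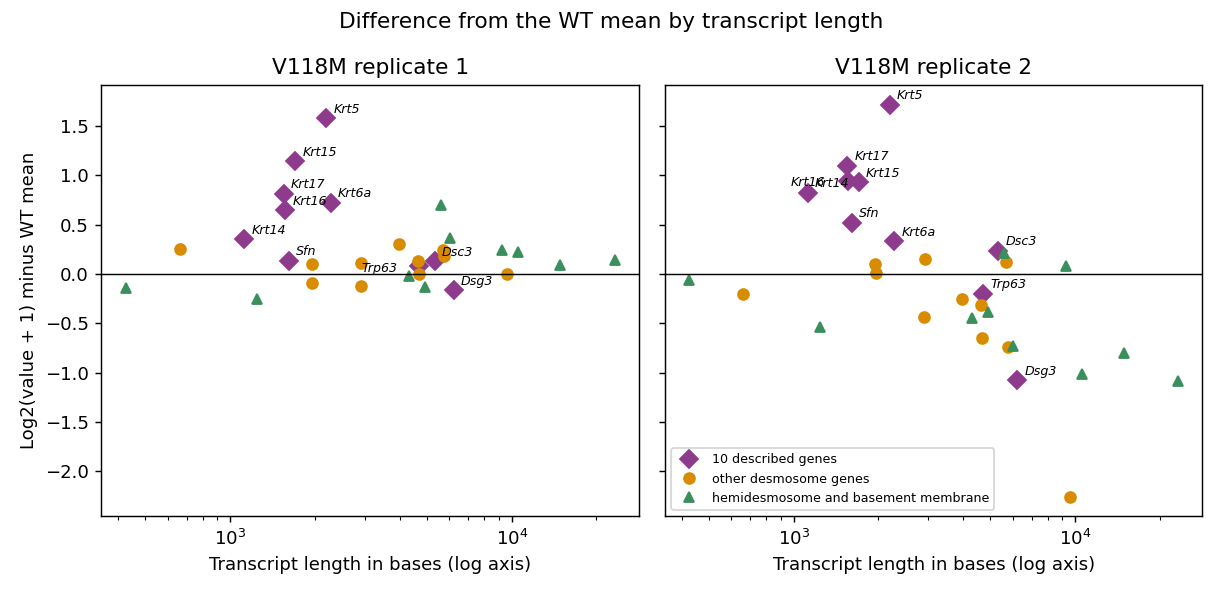
Log2(value + 1) minus the WT mean in V118M replicate 1 (left) and V118M replicate 2 (right) against the length of the listed transcript (log axis), for the 10 genes (purple diamonds), 11 other desmosome genes (orange circles) and 10 hemidesmosome and basement membrane genes (green triangles). In replicate 2 the long Dsp, Dst and Dsg3 lie at -2.26, -1.09 and -1.08, while the keratins, at 1122 to 2278 bases, lie above 0 in both panels.

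Length is a measured property that the keratins share: their listed transcripts have 1122 to 2278 bases, while those of Trp63, Dsc3 and Dsg3 have 4703 to 6212. For Krt14 the listed transcript is the noncoding one of 1122 bases, while the coding one has 1698. The length correlations and the removal of a length and GC trend used listed transcripts. In V118M replicate 2 short transcripts were relatively high. Krt5, Krt14, Krt16 and Krt17 were higher there than in V118M replicate 1, while Krt6a and Krt15 were lower. The deviation from the mean of the other libraries correlated with length at 0.381 in V118M replicate 1 (Spearman). It was 0.39 in WT replicate 1 and 0.0777 in WT replicate 2. In each of these the mean of the others included V118M replicate 2 (-0.458), so they do not measure length against the WT mean. In V118M replicate 1, Krt5 was 1.58, Krt15 1.14, Krt17 0.81, Krt6a 0.72, Krt16 0.65 and Krt14 0.35 above the WT mean on the log2 scale. Once the trend on length and GC was taken out of every library, the log2 fold changes were 1.65 for Krt5, 1.01 for Krt15, 0.92 for Krt17, 0.76 for Krt16, 0.54 for Krt6a, 0.53 for Krt14 and 0.30 for Sfn. What length contributes to the keratin values was not tested beyond this.

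Levels between genes can be set side by side per kilobase of the longest coding transcript, with the caution that the authors' normalization may have altered levels between genes. In V118M the order was Krt14 (3417 and 4743 per kilobase), Krt6a (3535 and 2695), Krt16 (1840 and 2262), Sfn (1616 and 2109), Krt17 (1565 and 1910), Krt5 (302 and 333), Dsc3 (77.6 and 83.6), Dsg3 (48.9 and 25.9), Trp63 (20.9 and 17.1) and Krt15 (12.4 and 10.6). Of these, Krt14 and Krt6a overlapped, as did Krt16, Sfn and Krt17. In WT the order was the same except that Sfn (1437 and 1505) stood above Krt16 (1229 and 1122), and no neighbours overlapped. Krt14 (2799 and 2567) and Krt6a (2289 and 1999) again led, Krt17 (879 and 902) followed Krt16, and Krt5 was at 112 and 90.6. Dsc3 (71.6 and 70.1), Dsg3 (59.6 and 50.5), Trp63 (19.6 and 19.9) and Krt15 (4.71 and 5.88) were the lowest.

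The genes whose 4 values were most like those of Krt5, by Euclidean distance between log2 values centred on their mean, were Ifi44, Gm12603, Tph2, Crispld2 and Vmn2r1, among 12652 genes whose log2 values averaged 5 or more. Ifi44, an interferon-induced gene, was the closest at a distance of 0.109, with 308 and 351 in V118M and 112 and 100 in WT. The next, Gm12603, was at 0.263. The genes most like the median profile of the 10 were Gbp2, Tpx2, Gdpd3, Cdca7 and Nusap1, at distances of 0.049 to 0.063. With 4 libraries a likeness of this kind is a description only.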

How the data were processed

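RNA sequencing values of 2 V118M and 2 WT libraries were used. The deposited values are a score per gene and library, given as whole numbers but not read counts: the sorted columns hold the same value at 76.7% of ranks, the largest difference at any rank is 122, and totals run from 12855482 to 12859613. Such columns are what quantile normalization by the authors would give, a step not given in the sources here. Tools listed by the submitters' processing notes are FastQC, Bowtie2, RSEM and DESeq2, and the build is mm10, with no version or role. Strand use in counting is also not given. Ties at the top (10 genes at 61186) compress differences there.

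The scale was log2(value + 1). A gene was tested if 2 or more libraries had a value of 1 or more. limma 3.58.1 (R 4.3.3) was fitted over all 19547 genes with group as the only term and the trend and robust options, two-sided, with Benjamini-Hochberg adjustment. The planned test for counts was not used, since the values are not counts. The script was tested on simulated data. Gene positions, lengths and transcript sequences came from GENCODE M21, in which 22304 of the listed transcripts were found, and promoters from RefSeq (GRCm38.p6). The 10 genes and all lists were chosen with earlier results of these data known. From each list the 2 genes with the highest mean were named, besides any that passed; any other is marked as named after its values were seen. The alternatives were pseudocounts of 0.1 and 5, a filter left out or made stricter, no trend or robust option, a replicate block, removal of a length and GC trend (natural splines, 5 degrees of freedom each), and each library left out.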

Additional observations from a re-analysis of the deposited data

How the results depend on the processing

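The 6 keratins, Sfn and Dsc3 were above 0 and Dsg3 was below 0 under every alternative run, while Trp63 turned to 0.025 once the length and GC trend was taken out and ranged from -0.20 to 0.079 over the fits that left out a library, being above 0 only without V118M replicate 2. When each library was left out in turn, log2 fold changes ran from 1.498 to 1.80 for Krt5, 0.35 to 0.82 for Krt14, 0.33 to 0.72 for Krt6a, 0.65 to 0.95 for Krt16, 0.81 to 1.10 for Krt17, 0.14 to 0.52 for Sfn and -1.08 to -0.16 for Dsg3. For Krt14, Sfn and Dsg3 the value nearest 0 was without V118M replicate 2, and for Krt6a without V118M replicate 1. The median of the 10 ran from 0.48 to 0.67, with 8 to 9 of them above 0. No gene passed the adjusted p in these fits (0 in each), in which the lone library of a group is assumed to vary like the other group. An unadjusted p under 0.05, reached by 784 genes in the full fit, was reached by 5096 without V118M replicate 1, 2283 without V118M replicate 2, 221 without WT replicate 1 and 269 without WT replicate 2. It was reached by 1204 with the replicate block. Over the same fits the median was -0.25 to 0.12 for desmosome genes, -0.49 to 0.12 for hemidesmosome genes, -0.40 to 0.032 for basal regulators, -0.0093 to 0.28 for the other 14-3-3 genes, -0.18 to 0.0086 for suprabasal markers, -0.11 to 0.066 for simple epithelium, -0.11 to 0.031 for fibroblast markers, 0.42 to 1.37 for pluripotent cell markers, -1.62 to -0.18 for leukocyte markers and -0.0047 to 0.40 for other keratins. Except for the pluripotent cell and leukocyte markers, the direction of these list medians changed with single libraries. Without the length and GC trend the desmosome median was -0.0095. With a value of at least 10 in 2 libraries the median was 0.13 for the p53 family, where only Trp53 was left, -0.056 for suprabasal markers and -0.056 for other keratins. The cause of the other changes was not tested. With the replicate number as a block, 3 genes passed (limma), none of them among the 10: Oas2, Ifi27l2a and C4b, named after their values were seen. The labels do not say what the numbers mark. Replicate 1 minus replicate 2 in V118M correlated with the same difference in WT at 0.303. This was over the 12661 genes whose log2 values averaged 5 or more, and rests on only 2 pairs of libraries. Depth is unknown, so no detection limit is given.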
